A study of Mus musculus with 10 samples.

Results

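The granule protease cluster of mouse chromosome 14 holds serine protease genes that are used by cytotoxic lymphocytes and mast cells, and 9 of its genes are described here in sorted alveolar cells. The members were chosen by their level in 2 weeks RFP cells against Confetti cells of these same libraries, so every value that involves 2 weeks RFP is given as a description, without a test. They are 6 granzyme genes (Gzme, Gzmd, Gzmc, Gzmf, Gzmg and Gzmb) and 3 mast cell protease genes (Mcpt1, Mcpt2 and Mcpt8), matched by symbol, which makes 9 of the 31053 genes in the deposited matrices.

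Granzymes are serine proteases stored in the granules of cytotoxic T cells and NK cells. Gzmb is the main mediator of cell killing after entry through perforin, whereas Gzmc, Gzmd, Gzme, Gzmf and Gzmg are rodent relatives seen mostly in strongly activated lymphocytes and in the pregnant uterus. Mcpt1 and Mcpt2 encode chymases of mucosal mast cells, and Mcpt8 encodes a protease used as a marker of mouse basophils. All of these enzymes are made as inactive precursors that cathepsin C (Ctsc) trims, are held on the proteoglycan serglycin (Srgn), and are opposed by intracellular serpins. Alveolar type 2 (AT2) cells, the surfactant-producing stem cells of the alveolus, are not a known source of them.

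The libraries are droplet-based single-cell RNA profiles of EpCAM+ cells of the distal lung, sorted for RFP or YFP after 3 doses of 0.2 mg tamoxifen per g body weight in mice 8 weeks old, of both sexes and C57BL/6Brd-Tyrc-Brd mixed background, with at least 2 lungs pooled per sample. In Sftpc-CreERT2; R26R-Confetti mice the Cre is driven in AT2 cells and both colours are wildtype (Confetti RFP and Confetti YFP, 1 library each, with no time in the labels and 2 weeks in the study's methods). The other line was Sftpc-CreERT2; Red2Kras, whose lungs hold mutant cells, marked by RFP, beside wildtype cells, marked by YFP, and each colour was collected at 4 days and at 2 weeks with 2 libraries per group. This gave 6 groups and 10 libraries, and nothing in the labels says which lungs or preparation days the replicates share, so p-values measure only the spread between these libraries.

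The matrices held 42012 barcodes, and 32698 passed the filters. Of these, 29584 fell in alveolar clusters and 3114 in other clusters, of which 2427 were immune. Summed over alveolar cells, the smallest library (2 weeks YFP replicate 2) held 7336824 UMIs and the largest (2 weeks RFP replicate 1) 71473375. The 2 weeks RFP cells were the deepest, with medians of 15810 and 13381.5 UMIs per alveolar cell against 3251.5 to 6707.5 in the other 8 libraries, so shares of cells are also given after thinning each cell to 2000 UMIs. Of 32561 distinct barcodes, 137 (0.421%) occurred in more than 1 library.

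The genes lie in 1 stretch of GRCm38, with a few other genes among them, from Mcpt1 (ENSMUSG00000022227, chromosome 14, 56017971 to 56020384, plus strand) to Gzmb (56258838 to 56262260, minus strand). Mcpt2 (56042041 to 56044642) is on the plus strand, and Mcpt8 (56082166 to 56085273) and Gzme (ENSMUSG00000022156, 56117626 to 56120625) are on the minus strand. The promoter stretches of 4 members are shown because Gzme and Gzmd are near copies with very different UMI counts, while Mcpt8 and Mcpt1 were detected in the same cells as Gzme with unlike promoters. Each stretch is 150 bases from 120 bases before the RefSeq start (GRCm38.p6), read 5′ to 3′ on the strand of the gene, and capitals mark the motifs TGTGGT, which RUNX factors bind, and TATAAA, the box near many transcription starts.

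Gzme (chr14:56120596-56120745, minus strand): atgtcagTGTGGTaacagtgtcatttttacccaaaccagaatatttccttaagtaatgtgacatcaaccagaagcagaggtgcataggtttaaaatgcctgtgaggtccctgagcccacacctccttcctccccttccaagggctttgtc

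Gzmd (chr14:56132564-56132713, minus strand): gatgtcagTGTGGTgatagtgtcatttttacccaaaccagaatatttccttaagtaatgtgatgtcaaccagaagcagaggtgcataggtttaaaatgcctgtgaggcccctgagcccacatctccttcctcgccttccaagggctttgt

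Mcpt8 (chr14:56085168-56085317, minus strand): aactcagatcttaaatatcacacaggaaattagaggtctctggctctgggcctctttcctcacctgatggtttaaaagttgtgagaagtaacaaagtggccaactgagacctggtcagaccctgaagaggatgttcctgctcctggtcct

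Mcpt1 (chr14:56017844-56017993, plus strand): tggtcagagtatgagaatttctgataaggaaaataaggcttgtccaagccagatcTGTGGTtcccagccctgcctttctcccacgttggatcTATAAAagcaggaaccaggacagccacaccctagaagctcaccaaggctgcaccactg

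Over the full 300 bases of each promoter, Gzme was 94.0% identical to Gzmd, 89.4% to Gzmg and 86.7% to Gzmc, but only 62.9% to Mcpt8 and 59.6% to Mcpt1. Promoters of 8 members were in the RefSeq table. TGTGGT, read on both strands, was found in 8 of 8 and in 16.8% of all 32851 promoters of that length. In Mcpt8 it stood upstream of the printed stretch. The promoters of Gzmc, Gzmd, Gzme, Gzmf and Gzmg were 86.1% to 94.0% identical to each other, so the 8 are not independent. Gzmc, Gzmg and Gzmb have the motif too, with 0 UMIs in alveolar cells. Whether the motif bears on the members' levels was not tested. TATAAA was found in Mcpt1 alone (13.6% of all promoters), TGANTCA (AP-1) in Gzmb alone (7.81%) and GGAATG (TEAD) in Mcpt8 alone (14.7%). AGATAA, a motif of the erythroid and mast cell factors of the Gata family (11.2% of all promoters), and the NF-kB motif (20.7%) had no match. ETS core GGAA, which the other motif letters can overlap, was in 7 of 8 and in 96.0% of all promoters. CANNTG (E-box) was in 6 of 8 and in 72.3% of all.

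Gzme was the most frequently detected member, and it appeared in the mutant cells of 2 weeks at a level far outside that of the Confetti cells. Its UMIs summed over alveolar cells were 0 in Confetti RFP, 0 in Confetti YFP, 0 and 1 in the 4 days YFP replicates, 18 and 220 in the 4 days RFP replicates, 958 and 408 in the 2 weeks YFP replicates, and 43656 and 8023 in the 2 weeks RFP replicates. On the scale of TMM-adjusted CPM (counts scaled to library size) this was 567 and 196 CPM in 2 weeks RFP, 36.1 and 65.4 CPM in 2 weeks YFP, 0.910 and 25.5 CPM for 4 days RFP, with 4 days YFP at 0 and 0.0584 CPM. Both 2 weeks RFP libraries were above all others, and both Confetti libraries were at 0. Taking a floor of 3 counts over the Confetti group, replicate 1 of 2 weeks RFP was at least 6021-fold higher and replicate 2 at least 2087-fold higher. In sums, more positive cells and more RNA per cell cannot be told apart.

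Mcpt8 was likewise highest in 2 weeks RFP, but the groups below it overlapped. Its UMIs were 17077 and 1873 in 2 weeks RFP, 252 and 32 in 2 weeks YFP, 9 and 171 for 4 days RFP, only 0 and 4 for 4 days YFP, 0 in Confetti RFP and 1 in Confetti YFP. The 2 weeks RFP libraries were again the highest, at 222 and 45.9 CPM, and 4 days RFP replicate 2 came next at 19.8 CPM, above both 2 weeks YFP libraries (9.50 and 5.13 CPM), while 4 days RFP replicate 1 was below them at 0.455 CPM.

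The chymase genes Mcpt2 and Mcpt1 were detected in fewer cells, and most of their UMIs came from 1 library. Mcpt2 had 8126 and 233 UMIs in 2 weeks RFP, 277 and 16 in 2 weeks YFP, 7 and 28 in 4 days RFP and 0 in the 4 days YFP and Confetti libraries. Mcpt1 had 4510 and 107 UMIs in 2 weeks RFP, 103 and 2 in 2 weeks YFP, 0 and 2 in 4 days RFP and 0 elsewhere. For both genes 2 weeks RFP replicate 1 stood above every other library, while replicate 2, at 5.70 CPM of Mcpt2 and 2.62 CPM of Mcpt1, was below 2 weeks YFP replicate 1, at 10.4 and 3.88 CPM. The groups of 2 weeks RFP and 2 weeks YFP thus overlapped for these 2 genes.

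**Figure D1:**
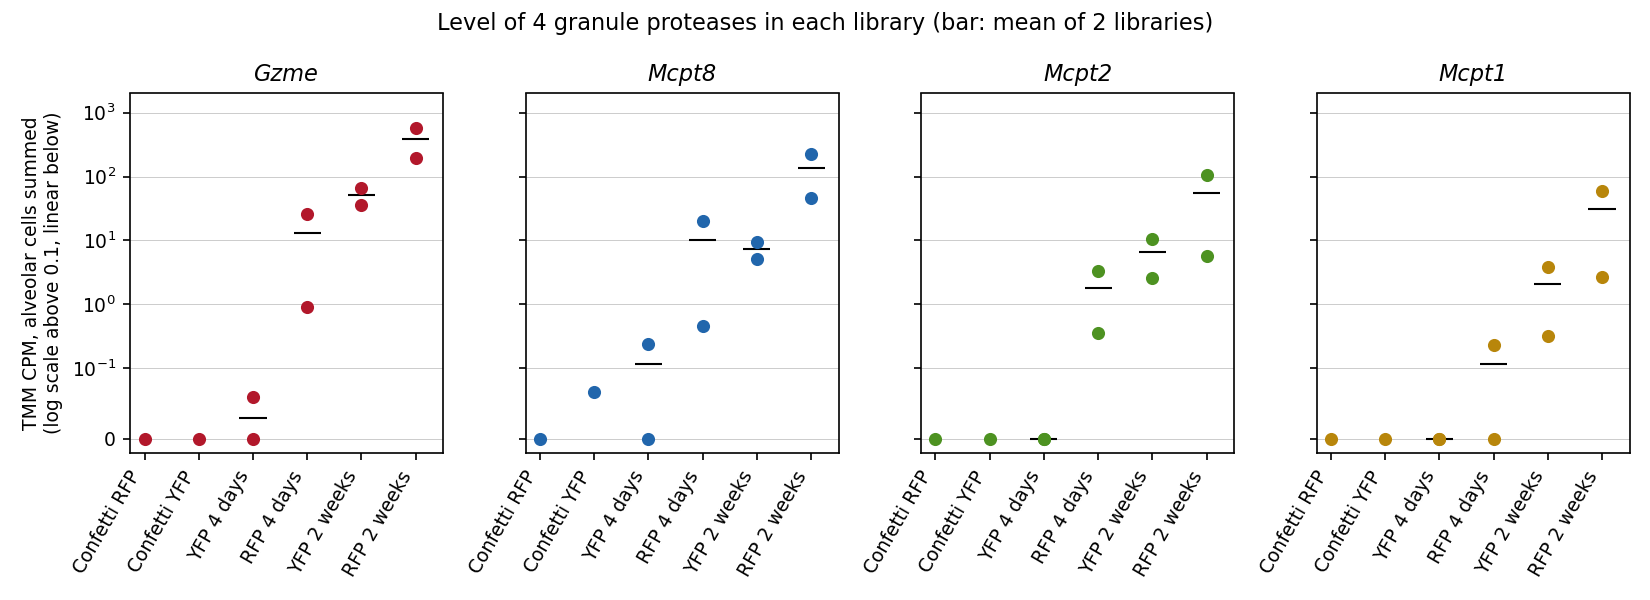
TMM CPM of Gzme, Mcpt8, Mcpt2 and Mcpt1 in each library (1 point per library, bars at the mean of 2 libraries, log scale above 0.1 and linear below). Gzme reached 567 and 196 CPM in 2 weeks RFP and 0 in both Confetti libraries, and 2 weeks RFP replicate 1 lies above replicate 2 for each of the 4 genes.

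The other 5 granzyme genes were nearly or fully absent from alveolar cells. Gzmd had 13 UMIs in 12 cells, 12 of them in 2 weeks RFP, and Gzmf had 2 UMIs. Gzmc, Gzmg and Gzmb had 0 UMIs in all 29584 alveolar cells. Gzme and Gzmd transcripts were 94.8% identical over their aligned length, but of the 91-base windows of Gzme only 0.726% occurred exactly in another gene of the locus, and in the last 400 bases, from which 3′ tags come, the share was 0% for all 9 members. Reads that match 2 genes equally are not counted by Cell Ranger, and 1.95% of the windows of Gzmd were shared in this way.

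Neighbours in the locus were read the same way. Raw CPM here and further on are CPM over the cells summed, without TMM scaling. Mcpt9, Mcpt4 and Ctsg, which lie between Mcpt1 and Gzme, reached at most 0.224 raw CPM in 2 weeks RFP replicate 1 (Mcpt9), and Gzmn, between Gzmg and Gzmf, 0.406 raw CPM, against 611 for Gzme and 239 for Mcpt8 on the same scale. Cma1, the gene of a connective tissue mast cell chymase, was at 0.0700 and 0.127 raw CPM in the 2 weeks RFP replicates. The flanking genes Khnyn and Sdr39u1 were at 7.60 and 15.3 raw CPM in 2 weeks RFP replicate 1, and at 7.55 and 15.5 in Confetti RFP. Ripk3 (55784995 to 55788865), which lies further from the protease genes than Khnyn and Sdr39u1, was higher in 2 weeks RFP than in Confetti (values under Other observations). Among the protease genes, the high levels in 2 weeks RFP were thus those of Mcpt1, Mcpt2, Mcpt8 and Gzme. The genes between them were under 1 raw CPM.

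**Figure D2:**
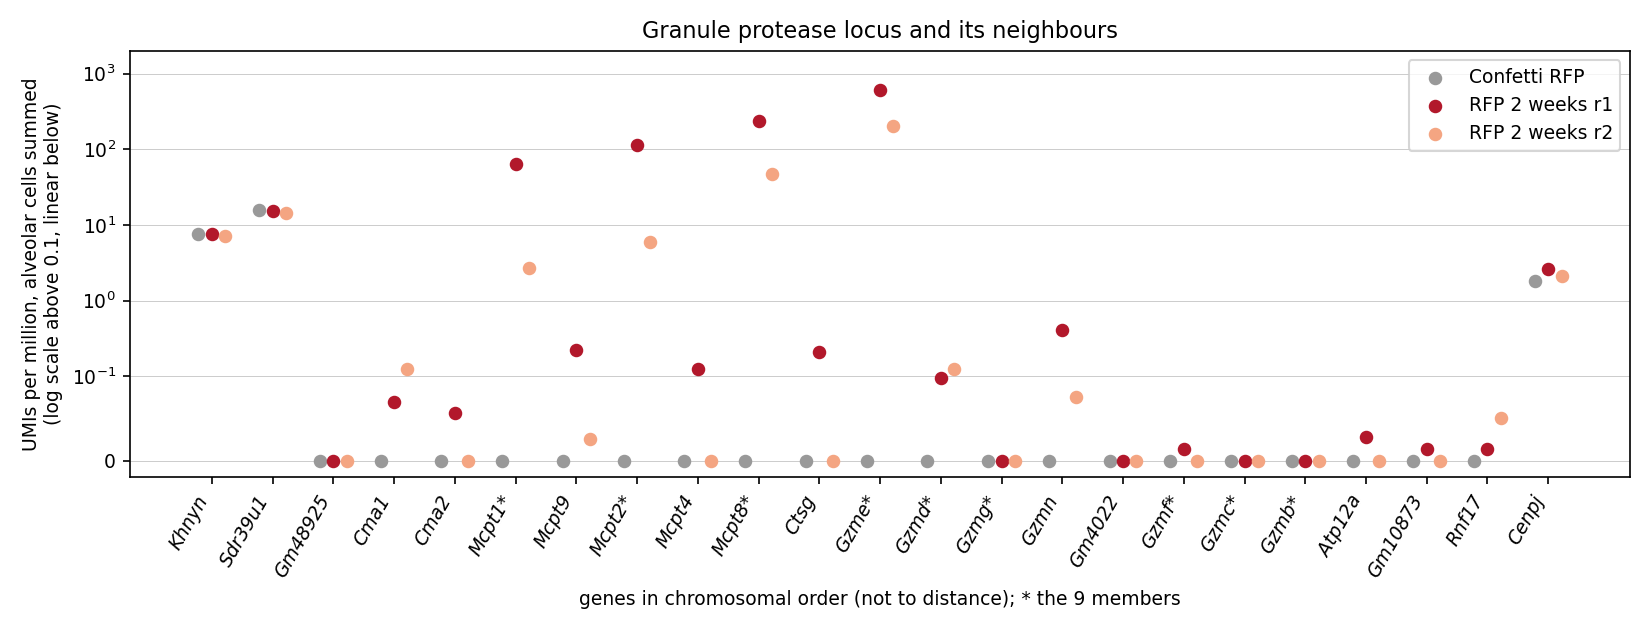
Raw CPM over summed alveolar cells for genes in chromosomal order from Khnyn to Cenpj, in Confetti RFP and both 2 weeks RFP libraries (log scale above 0.1 and linear below, asterisks at the 9 members). Mcpt1, Mcpt2, Mcpt8 and Gzme stand out in 2 weeks RFP, while Khnyn, Sdr39u1 and Cenpj lie together in the 3 libraries.

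In cells rather than sums, 26.3% (1066 of 4051) and 18.3% (506 of 2772) of 2 weeks RFP alveolar cells had a UMI of any member. Thinned to 2000 UMIs per cell, the shares were 12.8% and 8.59%. In 2 weeks YFP they were 0.473% (20 of 4224) and 2.38% (24 of 1008), in 4 days RFP 0.377% (14 of 3717) and 5.73% (82 of 1431), with 0% and 0.102% for 4 days YFP, and in Confetti 0% and 0.0253%. In 4 days YFP replicate 1, 0 of 1691 cells had a UMI, and 3 counts of that total would be 0.177%. Both 2 weeks RFP libraries were above all others before and after thinning, and 4 days RFP replicate 2 was next.

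Free RNA was gauged in cells outside the alveolar clusters, leaving out Gzmb. In 2 weeks RFP replicate 1, 11.9% (23 of 194) of those cells had a member UMI at a median depth of 7106 UMIs, and 3.65% after thinning. In replicate 2 the shares were 1.85% (14 of 756) and 0.927%. A level of 10 or more member UMIs was reached by 9.85% and 5.70% of alveolar cells of the 2 replicates, and by 0 of 194 and 2 of 756 of the other cells. In 2 weeks YFP replicate 1 the alveolar share of 0.473% was close to the 0.452% (1 of 221) outside the alveolar clusters. However, 10 alveolar cells of that library held 10 or more UMIs and none of the other cells did. For 2 weeks YFP replicate 2 the shares were 2.38% and 0.271% (2 of 738). There, 9 alveolar cells and 1 other cell held 10 or more UMIs. In 4 days RFP no cell outside the alveolar clusters had such a UMI, in 121 and 305 cells.

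**Figure D3:**
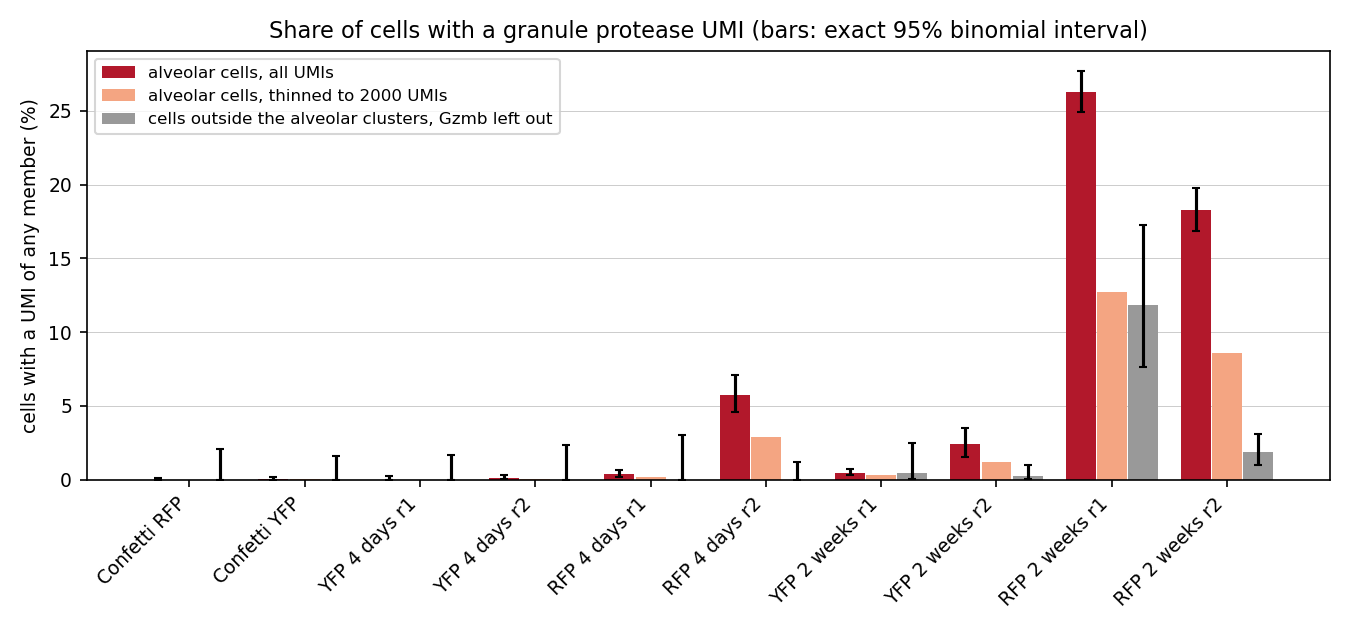
Percentage of cells with a UMI of any member in each library, for alveolar cells with all UMIs, for alveolar cells thinned to 2000 UMIs and for cells outside the alveolar clusters with Gzmb left out (error bars: exact 95% binomial interval, counting error only). The 2 weeks RFP libraries reach 26.3% and 18.3%, and 11.9% of the 194 other cells of replicate 1 also had a UMI.

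The UMIs were concentrated in few cells. Gzme was detected in 796 and 410 cells of the 2 weeks RFP replicates (19.6% and 14.8%), with medians of 5 and 3 UMIs in positive cells. The highest cell held 740 Gzme UMIs in replicate 1 and 592 in replicate 2, which was up to 3.08% and 3.47% of all UMIs of a cell. In replicate 1, 57 cells held 50% of all Gzme UMIs, and in replicate 2, 22 cells did. The top 1% of cells held 40.3% and 56.5%. Mcpt8 was detected in 14.7% and 8.26% of cells, Mcpt2 in 8.71% and 2.67%, and Mcpt1 in 4.44% and 0.649%.

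Members were found together in single cells. In 2 weeks RFP replicate 1, 414 cells had both Gzme and Mcpt8, which was 52.0% of Gzme+ cells and 69.7% of Mcpt8+ cells, while 5.53% of cells without Gzme had Mcpt8. In replicate 2 the overlap was 150 cells, 36.6% of Gzme+ and 65.5% of Mcpt8+ cells, against 3.34% of cells without Gzme. Outside the cluster led by Gzme that is described further on, Mcpt8 was in 28.5% of Gzme+ cells of replicate 1 and 36.1% of those of replicate 2. After thinning, Mcpt8 was in 57.4% of Gzme+ and 1.71% of other cells of replicate 1, and in 30.5% and 1.66% in replicate 2. Mcpt2 was in 34.3% and 14.1% of Gzme+ cells of the 2 replicates, and in 11.7% and 13.8% outside the cluster led by Gzme. At least 2 members were seen in 474 (44.5%) and 182 (36.0%) of the positive cells, and all of Gzme, Mcpt8, Mcpt2 and Mcpt1 in 125 and 3 cells.

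The share of cells with a mast cell protease grew with the Gzme count of the cell. In replicate 1, Mcpt8 was detected in 17.4% of cells with 1 Gzme UMI and in 98.6% of the 140 cells with 100 or more. Mcpt2 went from 4.88% to 94.3% and Mcpt1 from 1.39% to 60.7% over the same steps. In replicate 2, Mcpt8 went from 17.9% to 88.2% and Mcpt2 from 6.84% to 52.9%, with 17 cells in the highest step, while Mcpt1 went from 1.71% to 5.88%, the latter being 1 cell of 17. The median depth also differed, at 14818 UMIs for replicate 1 cells without Gzme and 26028.5 for those with 100 or more.

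**Figure D4:**
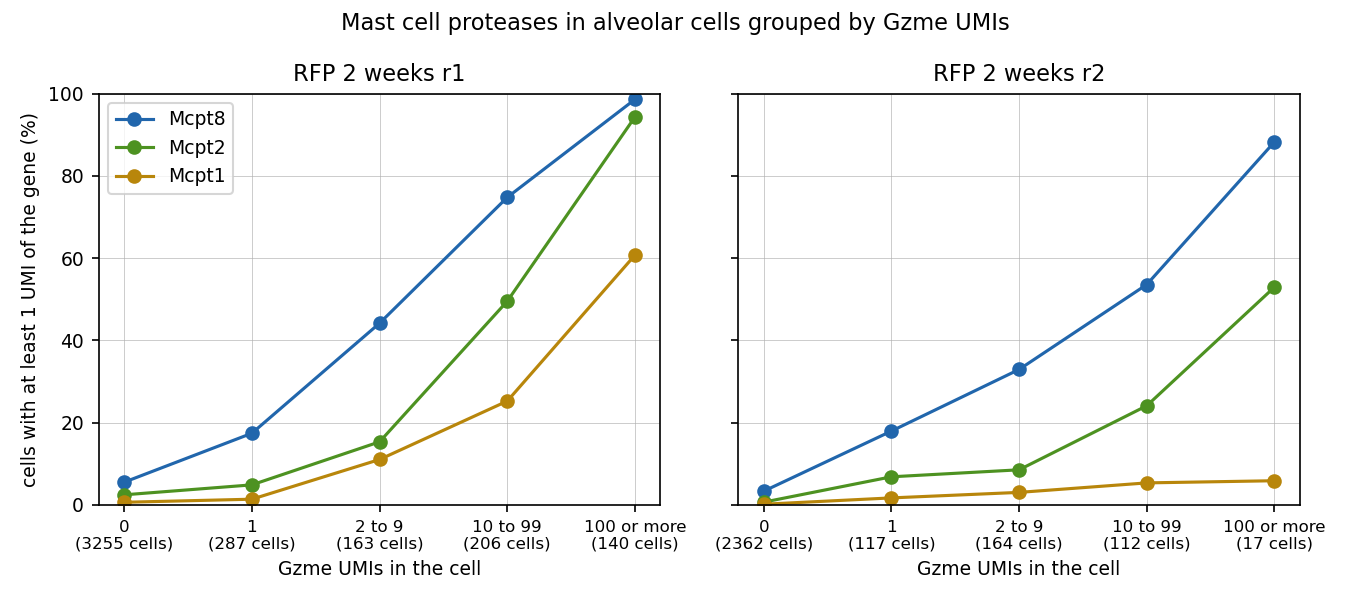
Percentage of alveolar cells with at least 1 UMI of Mcpt8, Mcpt2 or Mcpt1, by the number of Gzme UMIs in the cell, for each 2 weeks RFP library (lines join the steps of Gzme count, cell numbers under each step). Mcpt8 climbs to 98.6% and 88.2%, and Mcpt1 to 60.7% in replicate 1 but 5.88% in replicate 2.

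Over the cells of each 2 weeks RFP library, Pearson's r of log-normalised values between Gzme and Mcpt8 was 0.84 (4051 cells) and 0.58 (2772 cells), which was the highest of 11744 genes when ranked by the lower of both. Outside the locus, the genes most like Gzme were Spp1, which encodes the secreted phosphoprotein osteopontin (0.80 and 0.45), Vcam1, an adhesion molecule for leukocytes (0.63 and 0.41), Gkn2 (0.52 and 0.36) and Ly6a, which encodes Sca-1 (0.33 and 0.35). The remaining ones of the first 10 outside the locus were Ckb, Tspan8, Rbp4, Tspan1, Itih2 and Clu. Mcpt2 stood at 0.73 and 0.38, and in replicate 1 it fell to 0.24 outside the cluster led by Gzme and to 0.19 in male cells. For Mcpt8, r outside that cluster was 0.53 in replicate 1 and 0.56 in replicate 2. These values are across cells that share a library and its depth, and are descriptions.

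The proportions between members differed among libraries. For each 100 Gzme UMIs there were 39.1 and 23.3 Mcpt8 UMIs in 2 weeks RFP, 26.3 and 7.84 in 2 weeks YFP and 77.7 in 4 days RFP replicate 2. In that 4 days library Mcpt8 was detected in more cells than Gzme (52 and 38 cells), whereas Gzme was in more cells than Mcpt8 in both 2 weeks RFP libraries and in 4 days RFP replicate 1 (8 and 6 cells, from 18 and 9 UMIs). For Mcpt1 the figures were 10.3 and 1.33 in 2 weeks RFP and 10.8 and 0.490 in 2 weeks YFP, so replicate 1 of each colour was higher than replicate 2.

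Cells of the pooled lungs were split by sex, using Xist and 4 Y-linked genes. In 2 weeks RFP replicate 1, 41.4% of 1140 female cells and 22.2% of 2096 male cells had a member UMI, and after thinning the shares were 29.9% and 6.06%. The female cells held 67436 of the 73377 member UMIs (91.9%). The level of Gzme was 2082 raw CPM in female and 62.4 in male cells. Replicate 2 held 1 female cell by these genes, and its 1926 male cells were at 226 raw CPM, with 20.4% positive. In 2 weeks YFP replicate 1 the female cells were likewise higher, at 237 against 0.439 Gzme raw CPM. In 4 days RFP replicate 1 the shares were 0.173% of 2313 female and 1.24% of 484 male cells. By the same genes both Confetti libraries held female and no male cells (3288 and 3230 female), and the replicate 2 library of each Red2Kras group held 1 or 2 female cells, while each replicate 1 library held both sexes. Sex therefore goes with replicate number, and the comparison of 2 weeks RFP replicate 2 with Confetti sets male against female cells. The number of mice of each sex in a pool is not given in the labels, so sex and single mice cannot be told apart. Within male cells alone, the r of Gzme with Mcpt8 was 0.49 in replicate 1 and 0.60 in replicate 2, and within female cells of replicate 1 it was 0.86.

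Alveolar cells were clustered with all genes of the locus left out. The members were highest in a cluster of 377 cells whose leading genes included Spp1, Mmp13, Gkn2 and Basp1 beside Gzme, Mcpt8, Mcpt2 and Mcpt1. It came to 96.0% from 2 weeks RFP replicate 1 and is left unnamed here. Within that library, 92.5% of its 362 cells had a member UMI, with a median of 93 UMIs, and it held 92.1% of all member UMIs. Of the 362 cells, 335 (92.5%) were female, against 28.1% of the library. Without this cluster, 19.8% of replicate 1 cells (731 of 3689) were positive, close to the 18.1% of replicate 2, where only 4 cells fell in it.

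In 2 weeks RFP replicate 2 most member UMIs (58.8%) lay in the DATP-like cluster, named for damage-associated transient progenitors and led by genes that include Itga2, Cldn4 and Ndrg1, in which 28.2% of 1104 cells were positive. In replicate 1 the DATP-like cells were positive in 40.2% of 520. At 4 days, the DATP-like cells of RFP replicate 2 were positive in 11.5% of 520 and held 73.2% of the member UMIs, with 94.2% of those of Mcpt8, while 0.902% of the 665 cells of the cluster led by Apoc1, Pcx and Slpi were positive. A cluster led by Meg3, Kng2 and Trf, which made up 52.0% of replicate 2, was positive in 159 of 1441 cells and held 37.3% of the Gzme UMIs but 2.67% of the Mcpt8 UMIs. Cycling-like cells, marked by Top2a and Cdk1, were positive in 21.9% and 22.5%. Clusters with more AT2 character were low, with 7.59% of the cells of the Nfkbia and Atf3 cluster and 7.25% of the Hspa1b cluster positive in replicate 1. The exception was the largest cluster of that library, led by Pglyrp1 and Retnlg and like primed AT2 cells in its markers, in which 254 of 1456 cells (17.4%) were positive, against 5 of 55 (9.09%) in replicate 2. Cluster sizes differ between libraries, and a cluster mostly of 1 library may be that library.

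**Figure D5:**
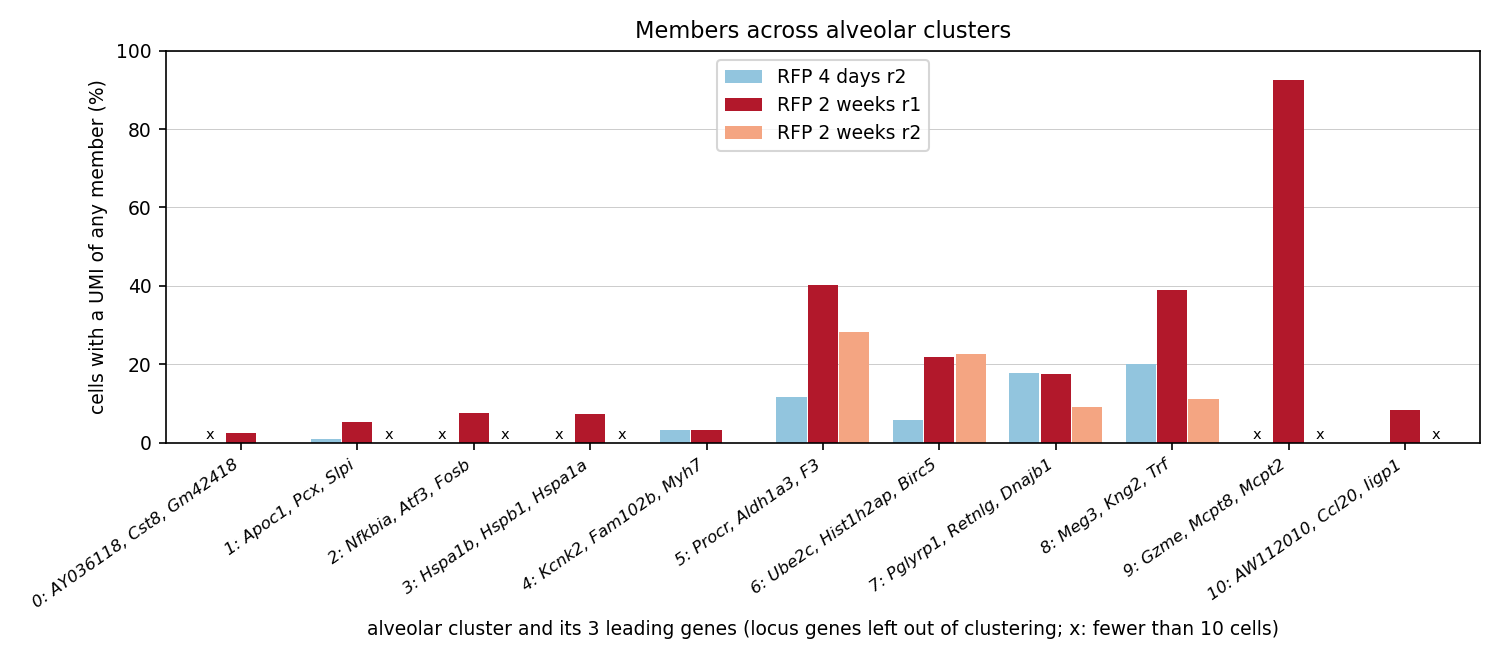
Percentage of cells with a UMI of any member in each alveolar cluster, for 4 days RFP replicate 2 and both 2 weeks RFP libraries (x marks clusters with fewer than 10 cells in a library). The cluster led by Gzme reaches 92.5% in replicate 1, and the cluster led by Procr, the DATP-like one, reaches 40.2% and 28.2%.

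Markers of the cells moved with the members. In 2 weeks RFP replicate 1 the summed AT2 list (7 of 7 genes detected) was 127352 raw CPM in cells without a member UMI, 57438 in cells with one and 29341 in cells with 10 or more Gzme UMIs. The DATP list (7 of 7) was 1921, 5028 and 6822 raw CPM. In replicate 2 the AT2 list was 102266, 48043 and 42408 and the DATP list 3368, 6220 and 6125. Krt8 was 779 and 1565 raw CPM in replicate 1 without and with a member UMI, and 1222 and 2175 in replicate 2. The AT2 surfactant gene Sftpb did not follow the list, at 6285 and 6040 in replicate 1 and 6913 and 7355 in replicate 2. The AT2 sum is mostly Sftpc and Sftpa1, so it says little of the other genes of the list. Over all alveolar cells of replicate 1 these were at 65103 and 22878 TMM CPM, against 701 for Lamp3. Whether depth or marker state carries the member share was not tested.

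The known source cells of these proteases were checked with their own markers. Among positive alveolar cells of the 2 weeks RFP libraries, Gzma, Gzmk, Prf1 (perforin) and Nkg7 were at 0 UMIs in both replicates. Of the mast cell and basophil list, Cpa3, Tpsb2, Ms4a2, Fcer1a and Prss34 were also at 0, and its sum rested on Hdc, which was higher in cells without a member UMI (262 against 148 raw CPM in replicate 1, 230 against 211 in replicate 2). In all, 6 of the 11 genes were detected in the positive cells of replicate 1 and 3 in its other cells, with 9 UMIs of Mcpt4, 4 of Cma1 and 1 each of Tpsab1, Kit and Gata2 in the positive cells, against 1 each of Cma1 and Gata2 in the others. In replicate 2 the positive cells held 4 UMIs of Cma1 and 1 of Gata2, against 1 of Cma1 in the others. The T and NK cell list had 3 of 10 and 2 of 10 genes detected, at 1.57 and 1.24 raw CPM, against 0.910 and 2.28 in the other alveolar cells. Serglycin (Srgn) was at 0.743 and 0.618 raw CPM in positive cells and at 0.360 and 1.88 in the others.

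At 4 days the lymphocyte markers differed between the RFP libraries. In replicate 1, the 14 positive cells held 67 UMIs of the T and NK cell list (6 of 10 genes, 461 raw CPM against 1.47 in the other cells), of which 57 were Ccl5, and Ptprc, Cd3d, Cd3e, Trac and Cd8a were also detected. The cytotoxic granule list was at 55.1 against 0.811 raw CPM, with Prf1, Nkg7 and Srgn detected. Each of these genes was detected in 1 of the 14 cells. Over all filtered cells of that library, Ptprc-positive cells held 0 of 18 Gzme UMIs, 0 of 7 Mcpt2 UMIs and 1 of 9 Mcpt8 UMIs. In replicate 2, the 82 positive cells held 4 UMIs of the T and NK cell list (5.22 against 1.46 raw CPM), with Prf1 and Nkg7 at 0.

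Ptprc, the gene of the pan-leukocyte antigen CD45, was found in 3.51% and 19.8% of all filtered cells of the 2 weeks RFP replicates. Of the member UMIs, 0.0885% (65 of 73434) and 1.43% (148 of 10319) lay in Ptprc-positive cells. Of the member-positive cells, 21 of 1092 (1.92%) and 16 of 521 (3.07%) had a Ptprc UMI. By gene, the share of UMIs in Ptprc-positive cells in replicates 1 and 2 was 0.0206% and 0.990% for Gzme, 0.117% and 3.44% for Mcpt8, and 0.0369% and 0.851% for Mcpt2. For Mcpt1 it was 2 of 4512 and 0 of 107 UMIs. Gzmb showed the opposite, with 32 of 32 UMIs in 4 Ptprc-positive cells, and over all libraries 46 of its 49 UMIs lay in 9 cells of a 70-cell cluster led by Ccl5, Cd3g and Cd3d. The members thus fell into 4 genes that were detected in alveolar cells, Gzmb in the cells led by Ccl5 and Cd3g, and 4 genes with few or no UMIs.

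Genes that act on granule proteases were present in the same alveolar cells. Ctsc was at 1113 raw CPM in cells without and 942 in cells with a member UMI in 2 weeks RFP replicate 1, and at 708 and 638 in replicate 2. Serpinb6a, an intracellular serpin, was at 157 and 363 in replicate 1 and at 266 and 453 in replicate 2. Serpinb9, whose product inhibits granzyme B, was at 61.1 and 46.5 in replicate 1 and 60.1 and 39.2 in replicate 2. Ctsc, Serpinb6a and Serpinb9 each had the same direction in both libraries. Srgn did not, as its levels above show, nor did Igf2r, a receptor for granzyme B, at 27.9 and 29.0 in replicate 1 and 29.7 and 23.9 in replicate 2. As members chose the cells, no test was made.

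Contrasts that used neither 2 weeks RFP nor Confetti libraries were tested. Of the 9 members, 4 passed the filter on low counts, through the groups in which they are high, and Gzmd, Gzmc, Gzmf, Gzmg and Gzmb did not. The first contrast compared mutant with wildtype cells of Red2Kras lungs at 4 days, as an unpaired fit. Gzme was higher in 4 days RFP by a log2 fold change of 8.29 (SE 2.07) and Mcpt8 by 6.07 (SE 1.95). Mcpt2 and Mcpt1 had 0 UMIs in 4 days YFP, so their fitted folds are not given. Over a floor of 3 counts, Mcpt2 was at least 3.27-fold higher in replicate 1 and at least 30.1-fold in replicate 2, and Mcpt1, with 0 and 2 UMIs, was under the floor. None of Gzme, Mcpt8, Mcpt2 and Mcpt1 passed edgeR's quasi-likelihood test (adjusted p = 0.811, 0.811, 0.922 and 0.980). No gene passed in this contrast (0 of 13778, 0%), where 783 genes had an unadjusted p under 0.05. DESeq2 called 105 genes, Gzme among them (adjusted p = 0.0244), and not Mcpt8, Mcpt2 or Mcpt1. By counts over the groups, the ratio of Gzme to the single UMI of 4 days YFP was 25.2 in replicate 1 (95% interval 3.99 to 1052) and 709 in replicate 2 (126 to 28114), covering counting error only. Replicate 1 alone, without 4 days RFP replicate 2, gave 4.49 on the log2 scale for Gzme and 1.65 for Mcpt8. Replicate 2 alone gave 9.29 and 7.09. In these fits the RFP arm is 1 library, which is assumed to vary like the other groups.

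The second contrast compared wildtype cells of Red2Kras lungs collected at 2 weeks with those collected at 4 days, which come from different mice. Gzme was higher in 2 weeks YFP by a log2 fold change of 10.27 (SE 2.03) and Mcpt8 by 5.69 (SE 1.95), and none of these or of Mcpt2 and Mcpt1 passed (edgeR, adjusted p = 1 for each). No gene passed (0 of 13778, 0%), and 228 had an unadjusted p under 0.05. DESeq2 called 18 genes, with Gzme among them (adjusted p = 0.00402), from 958 and 408 UMIs against 0 and 1. By counts, the ratio of Gzme to the single UMI of 4 days YFP was 1003 in replicate 1 (95% interval 180 to 39644) and 1816 in replicate 2 (324 to 71909), and that of Mcpt8 to 4 UMIs was 65.9 (25.4 to 244) and 35.6 (12.6 to 139). These 1 and 4 UMIs were all in 4 days YFP replicate 2, and without that library both genes were compared with 0 UMIs. For Mcpt2 and Mcpt1, with 0 UMIs in 4 days YFP, replicate 1 of 2 weeks YFP was at least 96.6-fold and 35.9-fold higher over a floor of 3 counts for the 4 days YFP group. In replicate 2 the bound was at least 23.7-fold for Mcpt2, and Mcpt1, with 2 UMIs, was under the floor.

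The wildtype signal lay in few cells. In 2 weeks YFP replicate 1, 8 of its 20 positive cells lay in the Spp1 and Mmp13 cluster and held 92.4% of the member UMIs, although the cluster had 9 cells of that library. In replicate 2, 13 of 24 positive cells were DATP-like and 8 were in the Meg3 and Kng2 cluster. The summed level of Cd177, Cd38, Dlk1 and Itga2, the last of which is also in the DATP list, was at 801 and 491 raw CPM in the positive YFP cells of the 2 replicates and at 5.29 and 64.5 in the other YFP cells. Of the 10 T and NK cell genes, Ccl5 alone was detected in the positive cells of replicate 1, with 7 UMIs. Whether such cells are RFP+ cells carried over in the sort was not tested.

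No gene of 13778 passed in either contrast by edgeR (0%), so the other lists of granule genes could hold no call. Their counts and medians are given as a description. Of the 4 genes of activation, storage and uptake (Ctsc, Srgn, Igf2r and M6pr), 4 were tested and 0 were called in either direction in both contrasts, with medians of -0.03 and 0.02 on the log2 scale beside medians of -0.00 over all genes. Of the 8 inhibitors, 5 were tested and 0 were called, with medians of -0.36 and 0.17. Of the 6 other granzyme and cytotoxic granule genes 2 passed the filter, and of the 11 mast cell and basophil genes 1 did, and none was called. The DATP list, which marked the cells that held most members at 4 days, had 7 of 7 genes tested, 0 called, and medians of 2.85 and 0.88 on the log2 scale; its part in the member values was not tested.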

How the data were processed

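The deposited matrices are raw UMI counts by gene and barcode from Cell Ranger, run by the authors on GRCm38 (3.1.0 in the submitters' processing notes, 5.0.1 in the file headers). The labels name 3′ chemistry version 2 and the methods version 3. Barcodes with under 1000 genes, over 50000 UMIs or over 15% mitochondrial UMIs were removed, as in the study. Cells were clustered with scanpy 1.11.5 (5000 variable genes without the locus, 30 components, 20 neighbours, Louvain at 0.8), without integration or doublet removal, and non-alveolar clusters were set aside.

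UMI counts were summed per library over alveolar cells and fitted with edgeR 4.0.16 (R 4.3.3; 6 groups, TMM, filterByExpr, quasi-likelihood F test, Benjamini-Hochberg over 13778 genes, threshold 0.05), and DESeq2 1.42.0 was an alternative, beside other filters, cells and libraries left out. The fit was tested on simulated data with known changes and 1 fixed spread between libraries for all genes. Its power for genes that differ as much between replicates as the members was not tested. Intervals are exact 95% binomial or Poisson-based and cover counting error only. Named genes were the members, genes within 300 kb, the lists of granule, mast cell and lymphocyte genes, and the 10 genes most like Gzme. The members and lists were chosen with earlier results of these data known. Gene positions are from GENCODE M21 and promoters from RefSeq.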

Additional observations from a re-analysis of the deposited data

How the results depend on the processing

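With edgeR, 0 genes were called in 4 days RFP against 4 days YFP and in 2 weeks YFP against 4 days YFP. With DESeq2 the counts were 105 and 18. Without a filter on low counts they were 496 and 188, where Gzme, Mcpt8 and Mcpt2 passed in both contrasts and Mcpt1 in the second. That fit held 20861 genes, and those of low counts share in its estimate of the spread. Whether its p-values still measure the spread between libraries was not tested, so these calls are a description of the setting. Leaving out 1 library at a time gave 0 to 194 calls in the first contrast, with 194 without 4 days RFP replicate 1 (its arm is then 1 library, assumed to vary like the other groups), and 0 to 1 in the second. With the replicate block the counts were 0 and 0. The replicate numbers are shared by 2 pairs in each contrast and no label says that they mark shared lungs, although replicate 1 libraries held cells of both sexes and replicate 2 libraries almost only male cells, with correlations of the replicate deviations of 0.476 and 0.169. The fit without 2 weeks RFP libraries was added after seeing the data and also called 0 and 0. The mean share of 2 weeks RFP alveolar cells with a member UMI was 22.3%, 10.7% after thinning, 14.3% with at least 2 UMIs, and 18.3% to 26.3% without either replicate. The mean share of member UMIs in Ptprc-positive cells was 0.761%, 1.80% with no quality filter, and 0.0885% to 1.43% without either replicate. The 4 days YFP and Confetti values rest on few or no UMIs. The cause of the differences between settings was not tested.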

Other observations

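Barcodes above the upper UMI filter were often member-positive. In the 2 weeks RFP replicates, 66 of 90 (73.3%) and 10 of 15 (66.7%) barcodes with more than 50000 UMIs held a member UMI. Member-positive alveolar cells were deeper than the others, with medians of 21442 and 17382.5 UMIs against 14490 and 12645, and more of them had high doublet scores (5.07% and 3.36% against 2.55% and 1.72%).

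In the same cells Areg, an epidermal growth factor family ligand, was at 581 and 1820 raw CPM without and with a member UMI in 2 weeks RFP replicate 1 and at 1020 and 1936 in replicate 2. Dlk1, a Notch-related surface protein, was at 179 and 746 in replicate 1 but at 316 and 301 in replicate 2. Ripk3, a necroptosis kinase gene further from the protease genes than Khnyn and Sdr39u1, was at 6.03 and 9.93 raw CPM in 2 weeks RFP against 0.307 and 0.435 in Confetti.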
